A study of Mus musculus with 7 samples.

Results

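The mitochondrial genome encodes 7 subunits of respiratory complex I, and their transcripts (mt-Nd1, mt-Nd2, mt-Nd3, mt-Nd4, mt-Nd4l, mt-Nd5 and mt-Nd6) were examined in RNA-seq libraries of aged mouse RPE, the retinal pigment epithelium, a single layer of pigmented cells that supports the photoreceptors. The members were taken by gene symbol, and all 7 were found among the 21861 rows of the count table. RPE was collected 12 weeks after treatment with an adeno-associated virus (AAV) vector. The control group, labelled Old-GFP, received AAV-GFP (n = 3), and the treated group, labelled Old-GSTA4, received AAV-GSTA4 (n = 4), so all animals were aged and all carried a vector. GSTA4 is a glutathione transferase that conjugates 4-hydroxynonenal, a reactive aldehyde of lipid peroxidation. The strain, exact age, sex, vector promoter and any pooling of animals are not given in the sources used here, and nothing says that the libraries of a group came from separate animals, so p-values measure only the spread between these libraries.

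Complex I (NADH:ubiquinone oxidoreductase) takes electrons from NADH into the respiratory chain and pumps protons across the inner mitochondrial membrane. The mitochondrially encoded subunits form the core of its membrane arm: mt-Nd2, mt-Nd4 and mt-Nd5 resemble antiporters and carry proton channels, mt-Nd1 helps form the site where ubiquinone enters, and mt-Nd3, mt-Nd4l and mt-Nd6 lie between them. The nuclear genome encodes the other subunits, including all that carry the flavin and the iron-sulfur clusters. Both strands of the mitochondrial genome are transcribed as long precursors that are cut into single messages, and mt-Nd6 is the only member on the light strand. The RPE relies strongly on mitochondrial respiration and passes glucose on to the photoreceptors.

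Where the members lie decides how their reads can be counted. In the GENCODE M21 annotation (GRCm38), mt-Nd1 lies at chrM:2751-3707, mt-Nd2 at chrM:3914-4951, mt-Nd3 at chrM:9459-9806, mt-Nd4l at chrM:9877-10173, mt-Nd4 at chrM:10167-11544 and mt-Nd5 at chrM:11742-13565, all on the plus strand, and mt-Nd6 lies at chrM:13552-14070 on the minus strand. Each is a single exon. The 3′ end of mt-Nd4l overlaps the 5′ end of mt-Nd4 by 7 bases on the same strand, and the 3′ ends of mt-Nd5 and mt-Nd6 overlap by 14 bases on opposite strands. These junctions are shown 5′ to 3′ with the overlap in capitals, because a read across one of them belongs to 2 genes. The libraries were made from full-length cDNA cut by transposase, and the strand setting of the counting is not given in the sources used here. Reads of mt-Nd6 and of its antisense partner therefore cannot be told apart.
mt-Nd4l, last 30 bases: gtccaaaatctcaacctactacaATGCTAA
mt-Nd4, first 30 bases: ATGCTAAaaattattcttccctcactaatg
mt-Nd5, last 30 bases: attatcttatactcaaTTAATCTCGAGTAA
mt-Nd6, last 30 bases: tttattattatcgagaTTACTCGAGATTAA

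Several members also have near-identical copies in the nuclear genome. The annotated pseudogene Gm10222 (chr1:24612407-24612700) matched mt-Nd4l at all 294 aligned bases, and Gm28438 (chr1:24612775-24613119) matched mt-Nd3 at 344 of 345. Each copy, as annotated, ends 3 bases before the mitochondrial message. Gm28439 (chr1:24611535-24612410) matched the first 876 of the 1378 bases of mt-Nd4 at every base. The best copies of mt-Nd2 and mt-Nd5 were shorter and less alike, with 96.7% identity over 510 bases and 90.4% over 965 bases. The first 300 bases of mt-Nd3 and the whole of mt-Nd4l are printed to show how little separates them from chromosome 1. Capitals mark the bases that differ from the nuclear copy or lie beyond its annotated end. The TAA in capitals at the end of mt-Nd4l is nonetheless present on chromosome 1. It lies in Gm28439, which overlaps Gm10222 and matches mt-Nd4 from its first base. The single mismatch is T3C, in mt-Nd3, with the mitochondrial base first, the position counted from 1 at the 5′ end, and the nuclear base last.
mt-Nd3, first 300 bases: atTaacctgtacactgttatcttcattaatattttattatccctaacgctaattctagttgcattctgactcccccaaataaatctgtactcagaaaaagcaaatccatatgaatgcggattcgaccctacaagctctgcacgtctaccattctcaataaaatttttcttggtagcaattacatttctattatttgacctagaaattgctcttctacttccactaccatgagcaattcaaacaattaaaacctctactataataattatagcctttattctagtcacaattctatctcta
mt-Nd4l: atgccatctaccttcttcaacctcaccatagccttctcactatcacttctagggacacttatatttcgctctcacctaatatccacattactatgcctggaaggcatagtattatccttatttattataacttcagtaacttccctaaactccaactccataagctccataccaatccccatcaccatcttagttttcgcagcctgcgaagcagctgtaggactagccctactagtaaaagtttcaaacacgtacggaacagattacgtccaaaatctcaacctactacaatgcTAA

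Each transcript was cut into every possible window of 50 bases, and the share of windows found letter for letter in an annotated nuclear transcript, on either strand, was counted. It was 98.8% for mt-Nd4l, 98.0% for mt-Nd3 and 62.2% for mt-Nd4, against 8.19% for mt-Nd2, 7.61% for mt-Nd5 and 0.0% for mt-Nd1 and mt-Nd6. With windows of 100 bases the shares were 98.5%, 97.6%, 60.8%, 3.19%, 0.0%, 0.0% and 0.0% in the same order. None of these pseudogenes had a row in the count table. A read from such a window has more than 1 place in the genome, and the rule for multi-mapping reads is not given in the sources used here, so the counts of mt-Nd3 and mt-Nd4l, and part of those of mt-Nd4, are uncertain as levels.

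Levels per length set mt-Nd3 and mt-Nd4l far below the other members. Expressed as CPM (counts scaled to one common library size, with the TMM correction of edgeR) per kilobase of gene, mt-Nd1 was the highest member in 7 of 7 libraries, from 2859 to 8646. The middle group comprised mt-Nd4 (631 to 2030), mt-Nd2 (722 to 1797), mt-Nd5 (508 to 1297) and mt-Nd6 (427 to 1368). Within it the ranks changed between libraries: mt-Nd4 took rank 2 or 3, mt-Nd2 ranks 2 to 4, mt-Nd5 ranks 3 to 5 and mt-Nd6 rank 4 or 5, so these neighbours were not separated beyond the spread. mt-Nd3 was sixth in every library, at 8.06 to 42.4 CPM per kilobase, and mt-Nd4l seventh, at 2.26 to 6.63. mt-Nd4, which shares its message with mt-Nd4l in the known bicistronic transcript, was counted at 202 to 356 times the level of mt-Nd4l per length. For the opposite-strand neighbours, the ratio of mt-Nd5 to mt-Nd6 counts per length was 0.918 to 1.29. Antisense reads may be among the mt-Nd6 counts, so this ratio does not compare expression from the 2 strands. Among the 6 other mitochondrially encoded genes, mt-Co2, mt-Atp6 and mt-Co3 also had over 90% of windows shared and mean levels from 87.8 to 216 CPM per kilobase. mt-Atp8 was low as well, at a mean of 27.2, with no window found in an annotated transcript. The comparison covered annotated transcripts only, and whether shared reads were lost from these genes was not tested.

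**Figure D1:**
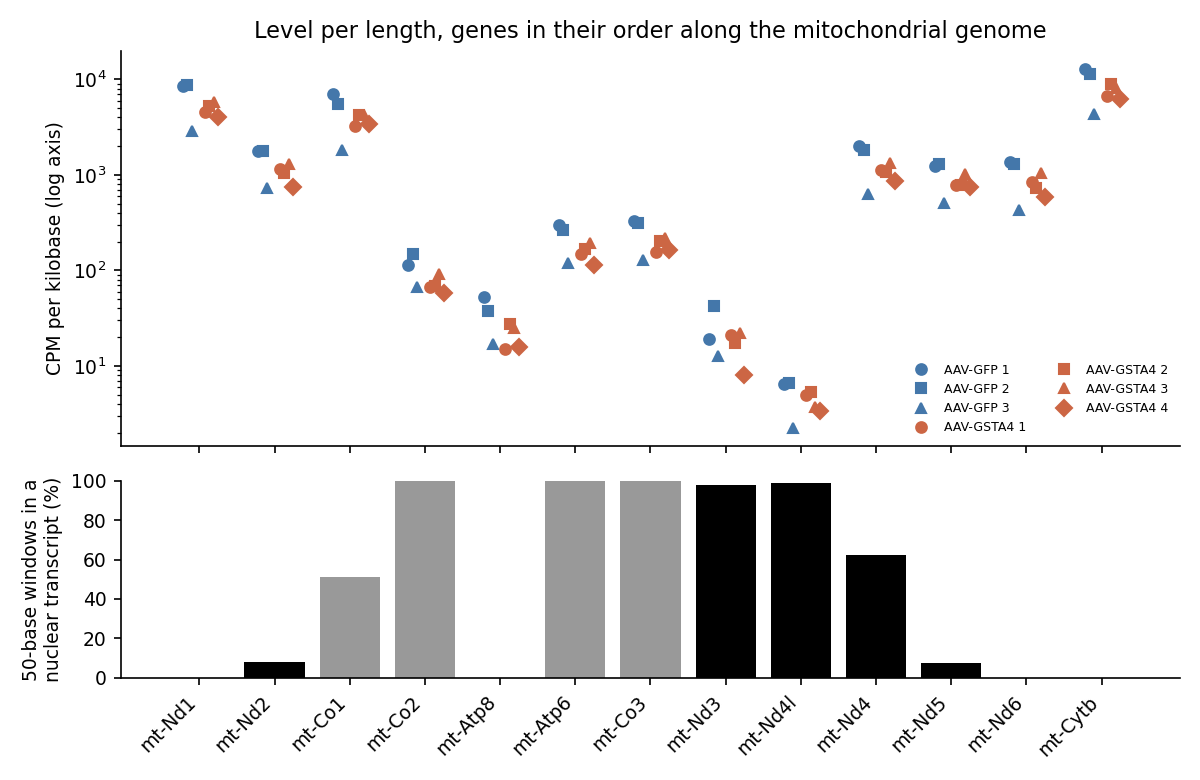
Top: TMM-scaled CPM per kilobase (log axis) of the 13 mitochondrially encoded genes in each library, in their order along the genome; blue, AAV-GFP; orange, AAV-GSTA4. Bottom: percent of 50-base windows of each gene found in an annotated nuclear transcript (black, mt-Nd genes; grey, others). mt-Nd3 and mt-Nd4l, with 98.0% and 98.8% of windows shared, are the lowest members in every library.

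The libraries held 15329181 to 28998964 counts. AAV-GFP replicate 3 differed most from the rest, with a TMM factor of 1.36 (0.868 to 1.05 elsewhere) and an average correlation to other libraries, in log2 CPM, of 0.838 (0.910 to 0.926 elsewhere). The vector's hGSTA4 row had 1 to 3 counts in AAV-GFP and 45 to 5239 in AAV-GSTA4, so it separated the groups, while the d2EGFP row had 99 to 3970 counts in AAV-GFP and 7 to 163 in AAV-GSTA4, so its groups overlapped. Results that rest on AAV-GFP replicate 3 are therefore given with and without it.

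mt-Nd1, the most abundant member, was counted at 8242, 8274 and 2736 CPM in the AAV-GFP libraries (replicates 1, 2 and 3) and at 4377, 4992, 5536 and 3827 CPM in the AAV-GSTA4 libraries (replicates 1, 2, 3 and 4). AAV-GFP replicates 1 and 2 were the highest libraries and replicate 3 the lowest, so all AAV-GSTA4 libraries lay between them and the groups overlapped. The group means were 6418 CPM ± 3188 (SD, n = 3) and 4683 CPM ± 741 (SD, n = 4). In edgeR's quasi-likelihood fit the log2 fold change, given throughout as AAV-GSTA4 over AAV-GFP, was -0.45 ± 0.41 (SE; adjusted p = 0.683).

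The antiporter-like subunits had the same arrangement of libraries. mt-Nd2 was at 1865, 1843 and 749 CPM in AAV-GFP and at 1193, 1080, 1361 and 768 CPM in AAV-GSTA4. mt-Nd4 was at 2798, 2497 and 870 CPM in AAV-GFP and at 1553, 1481, 1843 and 1202 CPM in AAV-GSTA4. In both genes AAV-GFP replicate 3 lay below every other library, while the other 2 AAV-GFP libraries lay above all AAV-GSTA4 libraries. mt-Nd5 was at 2291, 2365 and 927 CPM in AAV-GFP and at 1426, 1444, 1849 and 1369 CPM in AAV-GSTA4, where replicate 3 was above the other 3. Log2 fold changes were -0.43 ± 0.37 (SE) for mt-Nd2, -0.44 ± 0.40 (SE) for mt-Nd4 and -0.29 ± 0.36 (SE) for mt-Nd5, with adjusted p-values of 0.660, 0.686 and 0.771 in edgeR's test. Each of these differences was about as large as its standard error.

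mt-Nd6, the light-strand gene, was at 710, 673 and 222 CPM in AAV-GFP and at 437, 377, 543 and 302 CPM in AAV-GSTA4. Its counts may include antisense reads. As for mt-Nd1, AAV-GFP replicates 1 and 2 were above and replicate 3 below all AAV-GSTA4 libraries. The edgeR estimate was -0.37 ± 0.40 (SE) on the log2 scale (adjusted p = 0.736).

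The remaining small subunits had few counts. mt-Nd3 had 142, 382 and 92 counts in AAV-GFP and 141, 127, 130 and 76 in AAV-GSTA4, or 6.62, 14.8 and 4.42 CPM and 7.42, 6.09, 7.64 and 2.80 CPM. Only AAV-GFP replicate 2 stood above the rest (95% Wilson interval 13.3 to 16.3 CPM), and here AAV-GSTA4 replicate 4, not AAV-GFP replicate 3, was lowest. Its log2 fold change was -0.52 ± 0.50 (SE; adjusted p = 0.703 in edgeR's test) and became 0.12 without AAV-GFP replicate 2. mt-Nd4l had 41, 51 and 14 counts in AAV-GFP and 28, 33, 19 and 27 in AAV-GSTA4, or 1.91, 1.97 and 0.672 CPM and 1.47, 1.58, 1.12 and 0.996 CPM. The Wilson interval of AAV-GFP replicate 3, 0.399 to 1.12 CPM, lay below those of AAV-GFP replicates 1 and 2 (1.41 to 2.59 in replicate 1), while the intervals of the 4 AAV-GSTA4 libraries, which lay between 0.684 and 2.22 CPM, overlapped one another. Its log2 fold change was -0.23 ± 0.69 (SE; adjusted p = 0.917 in edgeR's test), a difference smaller than its standard error. These intervals cover counting error only. They treat each read as a separate molecule, which may make them too narrow, since no molecular identifiers are mentioned.

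**Figure D2:**
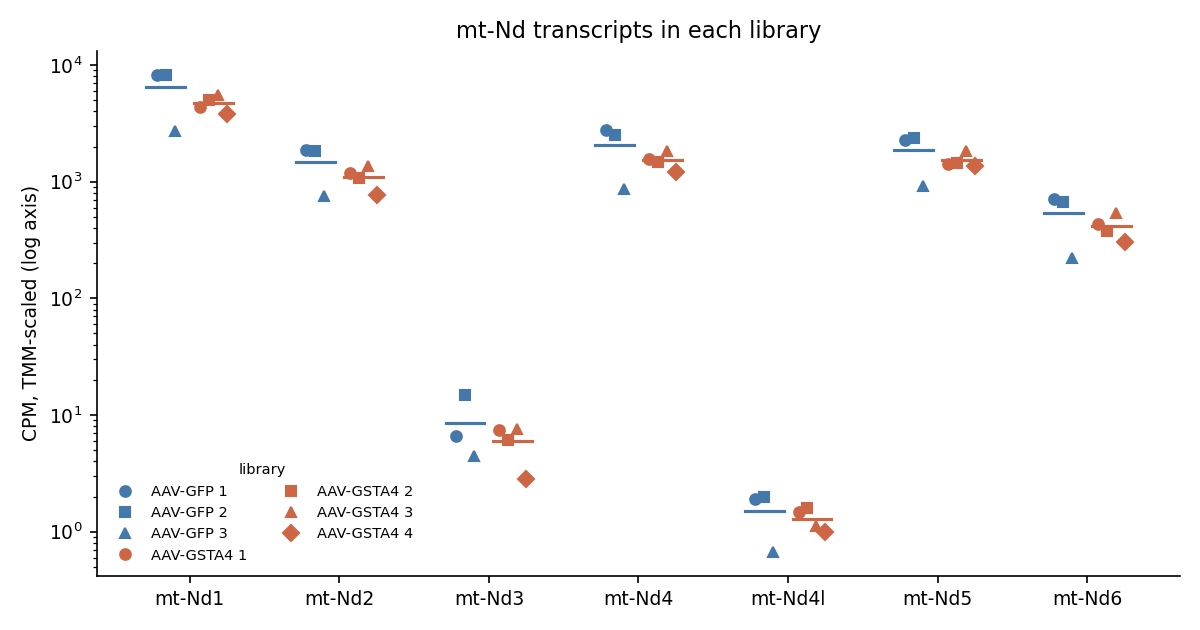
TMM-scaled CPM (log axis) of each mt-Nd gene in the 3 AAV-GFP (blue) and 4 AAV-GSTA4 (orange) libraries; horizontal lines are group means. For mt-Nd1, mt-Nd2, mt-Nd4, mt-Nd4l, mt-Nd5 and mt-Nd6 the AAV-GSTA4 libraries lie between AAV-GFP replicates 1 and 2 above and replicate 3 below.

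Across the group, all 7 members passed the expression filter, 0 of 7 had an adjusted p under 0.05 by edgeR and 0 of 7 had an unadjusted p-value under 0.05. Over all 15075 genes tested, 0 passed the adjusted threshold (0.0%), 1794 had an unadjusted p-value under 0.05, and 6.63% had such a p-value and were lower in AAV-GSTA4. limma-voom with quality weights called 146 of these genes (0.968%), and DESeq2 called 172 of the 12840 genes to which it gave an adjusted p-value (1.34%), none of them a member in either case. All 7 log2 fold changes were below 0, as were 55.4% of all genes. The members' median was -0.43, against -0.07 for all genes, and 29.3% of genes had a value at or below it. No member had groups that did not overlap, where 5.61% of genes were lower in every AAV-GSTA4 library than in every AAV-GFP library. All 7 stayed below 0 with median-of-ratios scaling (median -0.42), with library totals (median -0.66, where the median of all genes was -0.37 and mt-Nd2, as 14.1% of genes, was lower at an unadjusted p-value under 0.05) and with scaling computed without mitochondrially encoded genes (median -0.42). In these bulk libraries, fewer cells of a type and less RNA per cell cannot be told apart.

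Within AAV-GFP, replicates 1 and 2 lay close together and replicate 3 far below them, except for mt-Nd3. The mean of AAV-GFP replicates 1 and 2 was 2.42 to 3.12 times the level in replicate 3 for each member. The coefficient of variation of the members was 42.9% to 63.3% in AAV-GFP and 14.5% to 37.2% in AAV-GSTA4. Without AAV-GFP replicate 3, the log2 fold changes were -0.82 ± 0.24 (SE) for mt-Nd1, -0.75 ± 0.25 for mt-Nd2, -0.80 ± 0.23 for mt-Nd4, -0.61 ± 0.22 for mt-Nd5 and -0.74 ± 0.24 for mt-Nd6. In that fit 5 of 7 members had an unadjusted p-value under 0.05 (0.0061 to 0.0183), against 5.74% of all genes lower at that level, while mt-Nd3 was at 0.108 and mt-Nd4l at 0.354. In 6 of 7 members, all except mt-Nd3, every AAV-GSTA4 library was below AAV-GFP replicates 1 and 2, against 11.9% of all genes. The same held for every other mitochondrially encoded gene. Their unadjusted p-values in that edgeR fit were 0.0031 (mt-Co3) to 0.0191 (mt-Cytb), so the pattern was not particular to complex I genes. Most members rose and fell together over the libraries, so these counts of members are not counts of separate observations. No member passed after adjustment: the adjusted p-values were 0.313 to 0.705 in edgeR's test, and 0 genes in the table passed, while 1917 had an unadjusted p-value under 0.05. limma-voom with quality weights, which gave AAV-GFP replicate 3 a weight of 0.198, put 6 of 7 members at an unadjusted p-value under 0.05, against 11.4% of all genes lower at that level, with adjusted p-values of 0.119 to 0.440. Leaving out either of the other AAV-GFP libraries moved most values the other way. Without AAV-GFP replicate 1 the log2 fold change was -0.23 for mt-Nd1, -0.23 for mt-Nd2, -0.15 for mt-Nd4, -0.11 for mt-Nd5, -0.11 for mt-Nd6, -0.03 for mt-Nd4l and -0.68 for mt-Nd3. Without AAV-GFP replicate 2 it was -0.23 for mt-Nd1, -0.25 for mt-Nd2, -0.27 for mt-Nd4, -0.08 for mt-Nd5 and -0.17 for mt-Nd6, and it was above 0 for mt-Nd3 (0.12) and mt-Nd4l (0.0018).

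**Figure D3:**
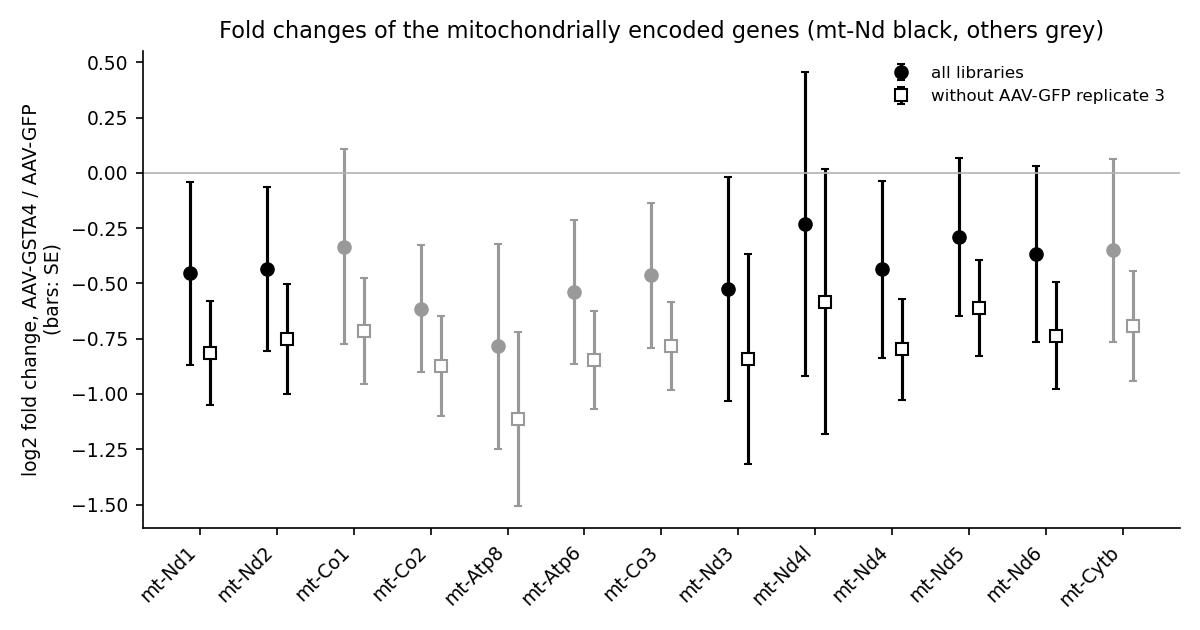
Log2 fold change (AAV-GSTA4 over AAV-GFP) and standard error of the 13 mitochondrially encoded genes, from edgeR fits to all 7 libraries (circles) and without AAV-GFP replicate 3 (open squares); mt-Nd genes in black, others in grey. All values are below 0, and each is farther from 0 without that library; mt-Nd1 moves from -0.45 to -0.82.

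The 5 members with higher counts kept similar proportions to one another in every library. mt-Nd1 made up 48.7% to 53.2% of the counts on the 7 genes over all libraries. mt-Nd4 made up 15.8% to 17.6%, mt-Nd5 14.4% to 18.3%, mt-Nd2 10.3% to 13.6% and mt-Nd6 4.02% to 4.87%. In AAV-GFP replicate 3, where the CPM of these genes was lowest, mt-Nd1 still made up 49.7%, while the share of mt-Nd2 was the highest of all libraries, at 13.6%, and that of mt-Nd4 the lowest, at 15.8%. The SD over libraries of the log2 ratio of a member to the other 6 was 0.08 for mt-Nd4, 0.10 for mt-Nd1, 0.13 for mt-Nd6, 0.14 for mt-Nd5 and 0.15 for mt-Nd2, against an SD of 0.55 for the log2 of their summed CPM. It was larger for mt-Nd4l, at 0.26, and for mt-Nd3, at 0.51, whose share ran from 0.0375% to 0.0941%. These ratios do not depend on library scaling.

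Group differences were then measured on 5 quantities per library, each with a two-sided exact permutation test over the 35 relabellings, which cannot give a p-value under 0.0286. The members together took 1.57%, 1.64% and 0.748% of all counts in AAV-GFP and 0.868%, 0.848%, 0.966% and 0.698% in AAV-GSTA4. As a share of the library total, AAV-GFP replicate 3 was above AAV-GSTA4 replicate 4 and below the other 3. AAV-GFP averaged 1.32% ± 0.497 (SD, n = 3) and AAV-GSTA4 0.845% ± 0.111 (SD, n = 4), with p = 0.171 (exact permutation test). The difference, -0.48 percentage points, was -0.76 points without AAV-GFP replicate 3, with p = 0.0667, the smallest value that exact test allows with 2 against 4 libraries. It was -0.32 points without AAV-GFP replicate 2, -0.35 points without AAV-GFP replicate 1 and -0.31 points (exact permutation test, p = 0.343) with the TMM-scaled library total as denominator.

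Within mitochondrial messages, complex I genes took 37.7%, 41.4% and 40.5% of the counts on the 13 mitochondrially encoded genes in AAV-GFP and 40.9%, 35.4%, 40.5% and 36.9% in AAV-GSTA4, with p = 0.429 in the exact permutation test. The groups covered nearly the same range. Counts on light-strand mt-Nd6 may include antisense reads, as the strands could not be told apart. Their log2 ratio to counts on the other 6 members averaged -4.49 ± 0.08 (SD) over the 3 AAV-GFP libraries and -4.43 ± 0.16 (SD) over the 4 AAV-GSTA4 libraries (exact permutation test, p = 0.457). Set against mt-Nd5 alone, that difference changed from 0.06 to -0.04. The log2 ratio of mt-Nd4l to mt-Nd4 was -10.39 ± 0.11 (SD, n = 3) and -10.21 ± 0.35 (SD, n = 4) (exact permutation test, p = 0.429). Its difference of 0.18 was 0.06 without AAV-GSTA4 replicate 2 and 0.34 without AAV-GSTA4 replicate 3. Leaving out each library in turn also moved the difference in the share of mitochondrial counts, -1.46 percentage points, between -2.54 (without AAV-GFP replicate 1) and -0.46 (without AAV-GSTA4 replicate 2), and that in the mt-Nd6 ratio between 0.01 (without AAV-GSTA4 replicate 3) and 0.11 (without AAV-GSTA4 replicate 2). Adjusted over the 5 measures, every p-value was 0.457.

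The balance between the 2 genomes was the remaining measure. The log2 ratio of summed mt-Nd counts to summed counts of 37 nuclear complex I subunits was 0.65, 0.77 and 0.29 in AAV-GFP and 0.47, 0.41, 0.27 and -0.34 in AAV-GSTA4. AAV-GSTA4 replicate 4 was the only library with fewer mitochondrial than nuclear complex I counts. AAV-GFP averaged 0.57 ± 0.25 (SD, n = 3) and AAV-GSTA4 0.20 ± 0.37 (SD, n = 4). The difference of -0.37 (p = 0.229, exact permutation test) was larger in size than the AAV-GFP SD and about equal to the AAV-GSTA4 SD. It was -0.19 without AAV-GSTA4 replicate 4. Binomial (Wilson, 95%) half-intervals were at most 0.0052 percentage points on the summed mt-Nd share of the total, 0.181 on the mt-Nd share of mitochondrial counts and 0.289 on the share of a member within the 7. They too treat each read as a separate molecule.

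**Figure D4:**
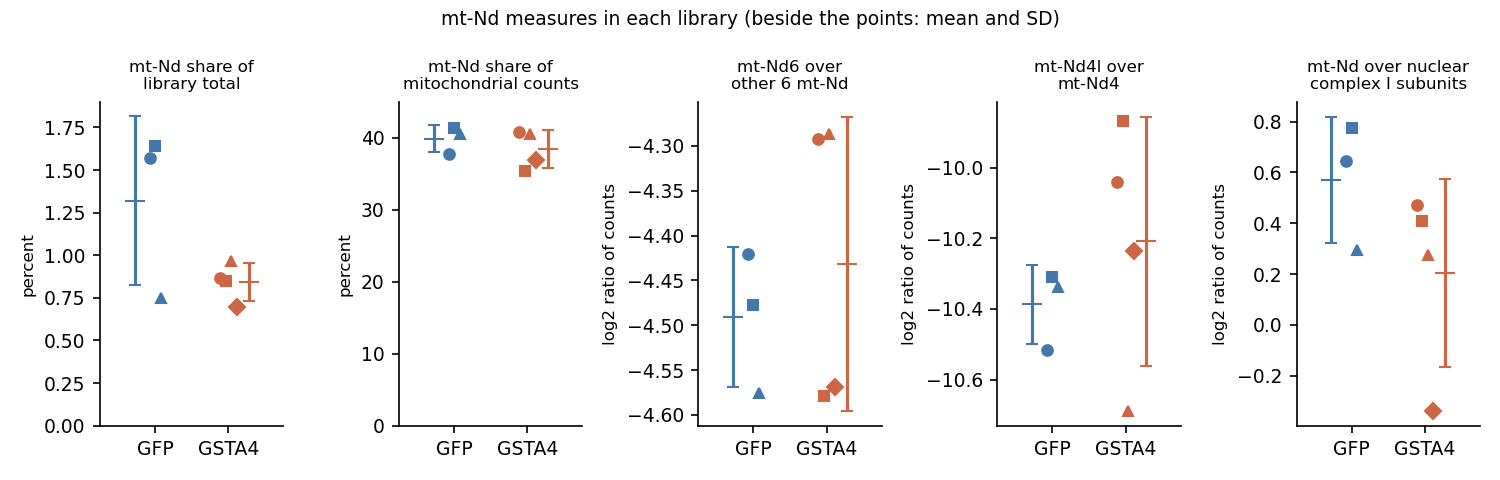
The 5 mt-Nd measures in each library (blue, AAV-GFP; orange, AAV-GSTA4; marker shapes as replicates 1 to 4: circle, square, triangle, diamond), with the group mean and SD beside the points. Left to right: share of the library total (%), share of mitochondrially encoded counts (%), and 3 log2 ratios of counts. The groups overlap in every panel.

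The other genes of the pathway were taken from lists. The 6 mitochondrially encoded subunits of complexes III, IV and V had 0 of 6 past the adjusted threshold and a median log2 fold change of -0.50, with all 6 below 0. The smallest p-value among them belonged to mt-Co2, a subunit of cytochrome c oxidase, at -0.61 ± 0.29 (SE; adjusted p = 0.434 in edgeR's test). The nuclear core subunits of complex I had a median of 0.02, with 4 of 7 above 0, and the accessory subunits a median of 0.02, with 17 of 30 above 0. Thus the 37 nuclear subunits ranged from -0.45 to 0.30, and 0 had an unadjusted p-value under 0.05. Among the smallest p-values were those of Ndufs3 (0.20 ± 0.24, SE) in the core, and of Ndufa8 (0.30 ± 0.24) and Ndufb1-ps (-0.45 ± 0.28) among the accessory genes.

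Assembly factors, which build complex I without staying in it, had a median of 0.00 over 18 tested genes, and 0 passed. Ndufaf5, which modifies the core subunit NDUFS7 during assembly, had the smallest p-value: AAV-GFP averaged 31.0 ± 2.60 CPM (SD, n = 3) and AAV-GSTA4 18.4 ± 1.80 CPM (SD, n = 4), or -0.76 ± 0.21 (SE) on the log2 scale (adjusted p = 0.363 in edgeR's test). Of the factors above 0, Ndufaf7 had the smallest p-value, with averages of 43.3 ± 5.96 CPM (SD) over the 3 AAV-GFP and 59.5 ± 7.98 CPM (SD) over the 4 AAV-GSTA4 libraries, or 0.46 ± 0.21 (SE) on the log2 scale (adjusted p = 0.426 in edgeR's test). The 34 genes of mitochondrial DNA maintenance, transcription and RNA processing had a median of -0.03, and 0 passed. Below an unadjusted p-value of 0.05 in edgeR's test lay 2 of these 34, both lower, where 6.63% of all genes were lower at that level. One was Polg2, the accessory subunit of the mitochondrial DNA polymerase (-1.25 ± 0.34, SE, adjusted p = 0.363 by edgeR). The other was Top1mt, the mitochondrial topoisomerase (-0.74 ± 0.32, SE, adjusted p = 0.402 by edgeR), which was named after its value was seen. For Polg2 AAV-GFP replicate 3 was the highest library, at 55.0 CPM against 20.1 and 28.8 in the other AAV-GFP libraries. Of the genes above 0 in this list, Pde12, a mitochondrial deadenylase, had the smallest p-value, at 0.41 ± 0.26 (SE; adjusted p = 0.537).

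The nuclear genes whose pattern over the 7 libraries was most like that of the summed mt-Nd count were found by the SD of the log2 ratio of each gene to that sum, over 11096 genes that averaged at least 2 in log2 CPM and had counts in every library, with the mitochondrially encoded genes left out of the ranking. Those 6 other mitochondrial genes had values of 0.13 for mt-Cytb, 0.14 for mt-Co3, 0.15 for mt-Atp6, 0.19 for mt-Co1, 0.27 for mt-Co2 and 0.35 for mt-Atp8. Among the nuclear genes ranked, the 5 smallest values were those of Slirp (0.16), Cebpzos (0.17), Rab9 (0.18), Zfp959 (0.18) and Lsm5 (0.19), against a median of 0.69 over these genes. Slirp, which is also in the list for mitochondrial RNA, was at 11.4, 10.8 and 4.47 CPM in AAV-GFP and 7.47, 6.77, 6.88 and 6.16 CPM in AAV-GSTA4. Its highest libraries were AAV-GFP replicates 1 and 2 and its lowest AAV-GFP replicate 3, an order that follows from choosing it by likeness to the mt-Nd sum. The nuclear complex I subunits had values from 0.24 to 0.60, with a median of 0.41 against 0.69 over all genes ranked. A gene at constant CPM would have a value of 0.55, the SD of the log2 summed mt-Nd CPM. The genes ranked were not matched to the subunits for level, so 0.69 is not a value for no likeness. The closest of the nuclear subunits was Ndufb1-ps, at rank 28.

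Markers of the cell types in the preparation differed between the same libraries. The 17 rod photoreceptor markers took 1.66%, 2.90% and 5.93% of counts in AAV-GFP and 0.766% to 1.46% in AAV-GSTA4. All 17 had log2 fold changes below 0 (15 at an unadjusted p-value under 0.05 in edgeR's test, 0 after adjustment over all genes). Over all genes, 55.4% were below 0 and 6.63% were lower at that level. All 9 cone markers were also below 0 (4 at that level). The 16 RPE markers were detected in the series, and took 3.35% of counts in AAV-GFP replicate 3 and 5.80% to 9.88% in the other libraries. Of their log2 fold changes 12 were above 0 and 4 below. In edgeR's test 5 of them were higher at an unadjusted p-value under 0.05, as were 795 of all 15075 genes. Cone markers took 0.0344% to 0.105% in AAV-GFP and 0.0206% to 0.0340% in AAV-GSTA4, and endothelial markers 0.0025% to 0.0186% and 0.0026% to 0.0049%. Mueller glia markers took 0.0468% to 0.0777% and 0.0425% to 0.0496%, and macrophage markers 0.0483% to 0.0637% and 0.0462% to 0.0664%. Lens markers took 0.465% to 1.58% in AAV-GFP and 0.464% to 12.6% in AAV-GSTA4, with the highest share in AAV-GSTA4 replicate 2. All 11 lens markers tested had log2 fold changes above 0, 8 of them at an unadjusted p-value under 0.05 in edgeR's test. No marker of any list was at 0 in all libraries. Olfactory and vomeronasal receptor genes, 1490 in all, summed to 826 CPM, here relative to all counts, in AAV-GFP replicate 3 and to 28.8 to 117 in the others. AAV-GFP replicate 3 therefore combined the highest rod and receptor shares with the lowest RPE share and the lowest CPM of 6 of 7 members. With a rod score (mean log2 CPM of the rod markers) as covariate, the members' median log2 fold change was -0.75, from -0.97 for mt-Nd1 to -0.12 for mt-Nd3. Their adjusted p-values were 0.610 to 0.976 in edgeR's test. The score was 8.74 to 10.2 in AAV-GFP and 7.77 to 8.64 in AAV-GSTA4. As these ranges do not overlap, rod signal and group cannot be told apart in that fit. The part of lens, cone, glial and receptor signal in the mt-Nd values was not tested.

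**Figure D5:**
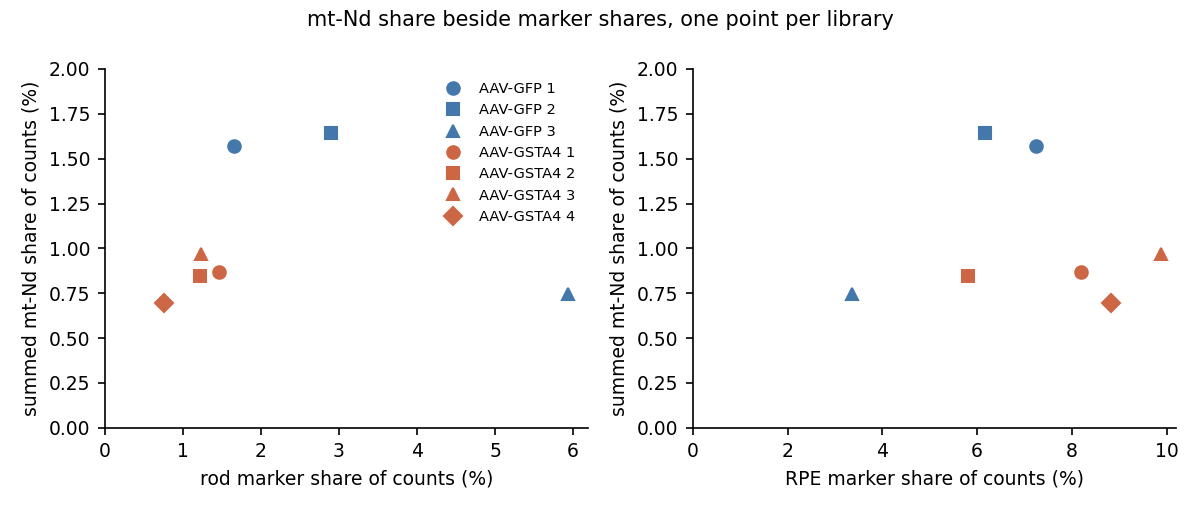
Summed mt-Nd share of counts (%) against the rod marker share (left, %) and the RPE marker share (right, %), with one point per library (blue, AAV-GFP; orange, AAV-GSTA4). AAV-GFP replicate 3 lies at 5.93% rod and 3.35% RPE markers with an mt-Nd share of 0.748%, away from AAV-GFP replicates 1 and 2 at 1.57% and 1.64%.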

How the data were processed

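Full-length cDNA was made from polyadenylated RNA by template switching and cut by transposase into libraries, per the labels' protocols. The authors deposited raw read counts, with genes (by symbol) in rows and libraries in columns. The submitters' processing notes name STAR 2.7.1a, featureCounts 1.6.2, and mouse (GRCm38) and human builds; the annotation, strand and multi-mapping settings are not given in the sources used here. Coordinates and transcript sequences are from GENCODE M21 (GRCm38); RefSeq's gene table gave the same positions for 7 of 7 members. Repeated symbols (26 extra rows) were kept as separate rows. The lowest chi-square per gene between 2 libraries was 57.5, so none was taken as a copy of another and each counted as 1 replicate. That value cannot show whether libraries came from separate animals.

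The main test was edgeR 4.0.16 (R 4.3.3), a robust quasi-likelihood F-test on all 7 libraries with the group as the only factor, TMM scaling, the default expression filter and Benjamini-Hochberg adjustment over all genes tested (threshold 0.05). The standard error of a log2 fold change is its size over the square root of F. Log2 CPM used a prior count of 2. The fit was also run on simulated counts, and the outcome is not given here. Alternatives were limma 3.58.1 (voom, quality weights, robust), DESeq2 1.42.0, other scalings and filters, a rod covariate, replicate blocks and leaving out each library.

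Genes named were the members, the smallest p-value in each direction of each pathway list, and the 5 nuclear genes most like the mt-Nd sum. One gene that this rule names is not reported here. Members and lists were chosen with earlier results of these data known. Protein sequences were not used here.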

Additional observations from a re-analysis of the deposited data

How the results depend on the processing

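No member passed the adjusted threshold in any of the 17 alternatives (adjusted p-values from 0.119 to 1; DESeq2 gave none for mt-Nd4l). Of 119 log2 fold changes, 117 were below 0. The exceptions were mt-Nd3, at 0.12, and mt-Nd4l, at 0.0018, both without AAV-GFP replicate 2; leaving out each library in turn gave -0.84 to 0.12 for mt-Nd3 and -0.58 to 0.0018 for mt-Nd4l. The members' median moved from -0.43 to -0.15 without AAV-GFP replicate 1, -0.17 without AAV-GFP replicate 2, -0.75 without AAV-GFP replicate 3 and -0.27 without AAV-GSTA4 replicate 4; the cause was not tested. The difference in the log2 ratio of mt-Nd6 was -0.043 with mt-Nd5 alone as denominator. The 5 measures crossed no threshold in any alternative, but 3 against 3 libraries cannot give a p-value under 0.1, nor 2 against 4 under 0.0667, in the exact test.

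Past the adjusted threshold lay 172 genes with DESeq2, 146 with limma-voom and quality weights, 1 with the rod covariate (Cyp2f2) and 0 to 1 when leaving out each library (hGSTA4 without AAV-GSTA4 replicate 3); the cause was not tested. Titles and library names number the replicates differently, and same-numbered libraries did not deviate together (correlations of -0.0889 to 0.0090 by title and -0.128 to 0.0146 by library name). So few pairs cannot show whether a number marks paired animals or a shared batch. With a replicate block by title the count was 1 (hGSTA4) and the members' median -0.15; with a replicate block by library name they were 1 (hGSTA4) and -0.28. With either block, hGSTA4 was gained and no member was.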
